A study of Mus musculus with 6 samples.

Results

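Integrins and laminins are the receptors and a main ligand family of basement membranes. The genes were taken as the rows whose symbol begins with Itga or Itgb, or with Lama, Lamb or Lamc and a digit, leaving out Itgb3bp, Itgbl1 and symbols beginning with Itgb1bp, which do not encode integrin subunits. Of 24421 gene symbols, 38 met this, 27 of them integrins and 11 laminins. The comparison was made for the 26 (19 integrins and 7 laminins) with a mean of at least 1 CPM (counts scaled to a common library size) over the 6 libraries.

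The 6 libraries were made from C57BL/6N mouse samples at embryonic day 9.5 whose tissue label is whole embryo. There were 3 homozygous knockouts of Lphn2 (Lphn2_KO) and 3 wild types (WT), with no allele, treatment or transgene named beside the knockout. Lphn2, now named Adgrl2, encodes latrophilin-2, an adhesion receptor that the series describes as a marker of cardiac progenitors. Whether a sample was 1 embryo or a pool, and which part of the gene was removed, is not given in the sources used here.

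Laminins are heterotrimers of an alpha, a beta and a gamma chain that polymerise into the sheet on which epithelia, endothelia and muscle rest. Integrins are heterodimers of an alpha and a beta subunit that span the cell membrane. They bind laminin, collagen, fibronectin or cell surface counter-receptors outside the cell and the actin skeleton, through talin and kindlin, inside it. In the mouse conceptus, laminin networks underlie the embryonic epithelia and the heart and line the yolk sac, and the decidual cells of the uterus lay down a laminin-rich matrix of their own. Leukocytes carry integrins of a separate class that bind to other cells.

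Libraries held 14476809 to 23887717 counts in Lphn2_KO and 18352150 to 36213611 counts in WT. The counts come from tags at the 3' ends of transcripts, so isoforms of a gene are not separated, and levels are compared between libraries and not between genes. Adgrl2 itself stood at 5.49, 1.67 and 2.78 CPM in Lphn2_KO and at 10.9, 7.56 and 15.96 CPM in WT libraries, without overlap (log2 fold change -1.78 ± 0.50 SE, edgeR, adjusted p = 0.194). Tags at the 3' end can lie outside a deleted part, so this does not check the labels. The decidual list summed to 8608, 10276 and 15084 CPM in Lphn2_KO and to 21608, 38872 and 23984 CPM in WT libraries, while markers of the nervous system summed to 72.0, 23.6 and 27.5 CPM in Lphn2_KO and 120.2, 67.2 and 927 CPM in WT libraries. Prl8a2, a prolactin-related protein of the maternal decidua, was read at 1279 to 5335 CPM in Lphn2_KO and at 14989 to 28746 CPM in WT libraries, so all libraries held transcripts known from maternal tissue beside those of the labelled embryo. This gene sets the direction of the decidual sum. Without it the other 13 genes summed to 5708, 8997 and 9749 CPM in Lphn2_KO and to 6618, 10126 and 6003 CPM in WT libraries, with overlap. Of all 14 decidual genes, 8 had positive and 6 negative log2 fold changes (median 0.71). At an unadjusted p under 0.05 with edgeR, 7 were higher and 3 lower, against 8.68% and 6.86% of all genes. In such mixed samples, fewer cells of a type and less RNA per cell cannot be told apart. Lphn2_KO replicates 2 and 3 stood apart from the other 4 libraries in markers of trophoblast. Trophoblast markers summed to 82.8 and 206 CPM in these libraries and to 5324 CPM in Lphn2_KO replicate 1, against 6879, 7828 and 1942 CPM in WT. Results that depend on Lphn2_KO replicate 1 are therefore also given without it.

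None of the 26 genes passed an adjusted p of 0.05 with edgeR, where 0.0505% of all 13848 genes tested were called lower and 0% higher. At an unadjusted p under 0.05, 5 were higher and 2 lower, or 19.2% and 7.69% of the 26, against 8.68% and 6.86% of all genes. All Lphn2_KO libraries lay above all WT libraries for 5 genes and below them for 1, against 12.1% and 9.39% of all genes tested. Without Lphn2_KO replicate 1 these counts were 12 and 5, against 22.4% and 23.5% of all genes, and with that replicate alone against WT they were 7 and 3, against 23.4% and 21.2%. The median log2 fold change was 0.25 over the 26 genes and -0.04 over all genes. Of all 13848 genes tested, 6453 had positive and 7395 negative log2 fold changes. Library by library, the median log2 difference of the 26 genes from their WT mean overlapped between the groups. It was 0.15, 0.39 and 0.41 in Lphn2_KO and 0.03, 0.40 and -0.35 in WT libraries. With DESeq2, which called 3.49% of genes higher and 2.87% lower, Itgal and Itgb2 were higher and Lama4 was lower. With limma-voom none was called. Without Lphn2_KO replicate 1, edgeR called Itgal higher and Lamb1 and Itgb4 lower, against 1.77% of all genes higher and 3.27% lower. All fold changes are Lphn2_KO over WT, and levels are CPM scaled by TMM (trimmed mean of M values).

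**Figure D1:**
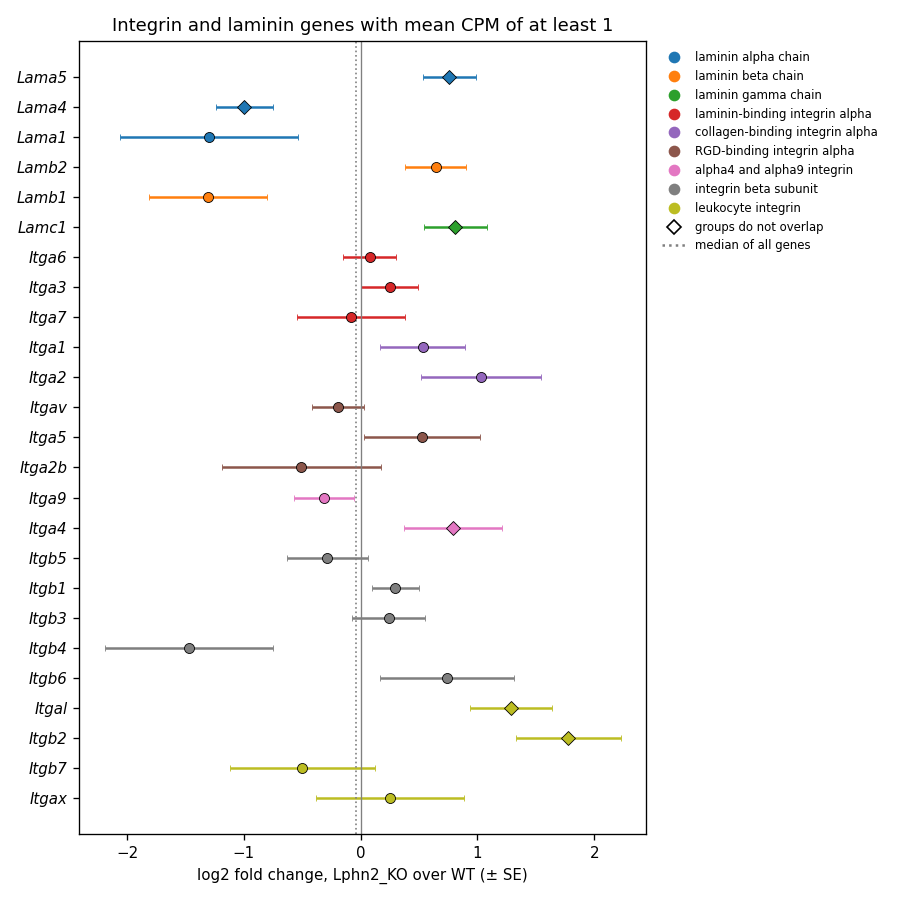
Log2 fold change of Lphn2_KO over WT with its standard error for the genes compared, grouped by role; diamonds mark genes whose 3 Lphn2_KO values all lie on 1 side of the 3 WT values. Lama5, Lamc1, Itga4, Itgal and Itgb2 stand to the right of 0 without overlap and Lama4 to the left. No gene passed the adjusted threshold of edgeR, while DESeq2 called Itgal, Itgb2 and Lama4.

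Among the laminin alpha chains, Lama5 was higher and Lama4 lower in Lphn2_KO libraries, in each case without overlap between groups. Lama5 (ENSMUSG00000015647.9, mm10 chromosome 2, 180176373 to 180225859, minus strand) encodes the alpha chain that is most widespread in later basement membranes. It stood at 128, 146 and 154 CPM in Lphn2_KO replicates 1, 2 and 3 and at 92.2, 101 and 59.7 CPM in WT replicates 1, 2 and 3. The 3 Lphn2_KO values lay close together and above the highest WT value. The means were 143 ± 13.0 CPM in Lphn2_KO and 84.3 ± 21.8 CPM in WT (SD, n = 3 each), a log2 fold change of 0.76 ± 0.23 (SE, edgeR, adjusted p = 0.209).

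Lama4 (ENSMUSG00000019846.11, chromosome 10, 38965515 to 39110188, plus strand) encodes the alpha chain known from endothelial and mesenchymal basement membranes. It stood at 14.7, 16.3 and 13.4 CPM in Lphn2_KO and at 38.7, 23.2 and 26.7 CPM in WT libraries. Every Lphn2_KO library was below every WT library, with means of 14.8 ± 1.43 CPM in Lphn2_KO and 29.5 ± 8.12 CPM in WT (SD, n = 3 each). Its log2 fold change of -0.99 ± 0.24 had the smallest adjusted p of the 26 genes (edgeR, adjusted p = 0.173; DESeq2, adjusted p = 0.014). With Lphn2_KO replicate 1 alone against WT it was -0.98. Markers of the endothelium, where Lama4 is known to be expressed, summed to 3659, 4635 and 4003 CPM in Lphn2_KO and to 2620, 3417 and 2190 CPM in WT libraries. These 16 genes were read above 0 in all libraries, and 15 of them had positive log2 fold changes. Their part in the Lama4 difference was not tested.

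Lama1, the alpha chain of the earliest embryonic basement membranes, was low. It stood at 2.51, 0.333 and 0.713 CPM in Lphn2_KO and at 4.02, 2.92 and 2.01 CPM in WT libraries. Lphn2_KO replicate 1 lay within the WT range and the others below it (log2 fold change -1.30 ± 0.76 SE, edgeR, adjusted p = 0.453). It was -2.50 without Lphn2_KO replicate 1 (adjusted p = 0.0928) and -0.23 with that replicate alone against WT. Lama2, the alpha chain of muscle and nerve, fell short of the mean of 1 CPM, at 0.876. Lama3, the alpha chain of stratified epithelium, was listed in WT replicate 1 only, with 10 counts.

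The beta chains differed in opposite directions. Lamb2 (ENSMUSG00000052911.9, chromosome 9, 108479736 to 108490530, plus strand), the beta chain known from mature basement membranes such as those of kidney and synapse, stood at 88.5, 130.5 and 125 CPM in Lphn2_KO and at 72.2, 95.0 and 53.0 CPM in WT libraries. Lphn2_KO replicate 1 lay below WT replicate 2, and the other Lphn2_KO libraries lay above all WT libraries. The log2 fold change was 0.64 ± 0.26 (SE, edgeR, adjusted p = 0.306).

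Lamb1 (ENSMUSG00000002900.16, chromosome 12, 31265234 to 31329644, plus strand), the beta chain of the early embryo and of the parietal yolk sac membrane, stood at 42.2, 12.7 and 13.5 CPM in Lphn2_KO and at 76.3, 52.4 and 41.4 CPM in WT libraries. The values of Lphn2_KO replicates 2 and 3 were far below every WT library, and replicate 1 lay just above the lowest of them. The log2 fold change was -1.31 ± 0.50 (SE, edgeR, adjusted p = 0.283). It was -2.12 without Lphn2_KO replicate 1 (adjusted p = 0.0256) and -0.41 with that replicate alone against WT. Parietal endoderm genes outside the laminins, mostly Sparc, summed to 6160, 9575 and 8615 CPM in Lphn2_KO. In WT libraries they summed to 7727, 5799 and 3732 CPM, with overlap. Yolk sac visceral endoderm markers stood at 260, 77.7 and 99.2 CPM in Lphn2_KO and 506, 663 and 785 CPM in WT libraries for the sum of 17 genes. Among Lphn2_KO libraries replicate 1 was the highest for both Lamb1 and this sum, whereas among WT libraries Lamb1 was highest and the sum lowest in replicate 1. Of these 17, 0, 7 and 10 were at 0 in Lphn2_KO replicates 1, 2 and 3, and 0, 1 and 0 in WT replicates 1, 2 and 3. The defining marker Afp was read in every library. The part of parietal or visceral endoderm in the Lamb1 difference was not tested.

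Lamc1 (ENSMUSG00000026478.14, chromosome 1, 153218922 to 153332786, minus strand) encodes the gamma chain that most laminin trimers share. It stood at 232, 339.5 and 354 CPM in Lphn2_KO and at 168, 230.4 and 129 CPM in WT libraries. The groups did not overlap, but Lphn2_KO replicate 1 exceeded WT replicate 2 by less than 2 CPM. The means were 309 ± 66.4 CPM in Lphn2_KO and 176 ± 51.1 CPM in WT (SD, n = 3 each), a log2 fold change of 0.81 ± 0.27 (SE, edgeR, adjusted p = 0.24).

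**Figure D2:**
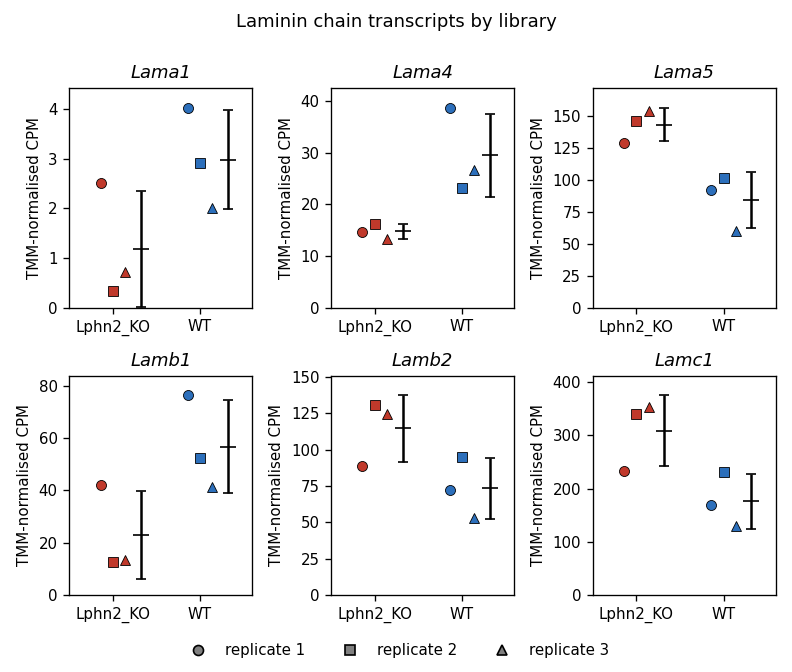
TMM-normalised CPM of 6 laminin chain genes in each library, with Lphn2_KO left of WT and the mean and SD of 3 libraries beside the points. Lama5 and Lamc1 lie higher and Lama4 lower in Lphn2_KO without overlap, and for Lama1 and Lamb1 Lphn2_KO replicates 2 and 3 lie below all WT libraries.

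Ratios of counts within a library do not depend on scaling, and 10 such ratios were computed, chosen after the values were seen. Only their change between libraries can be read, since genes may yield unequal tags per transcript. The ratio of Lama5 to Lama4 was 8.71, 8.97 and 11.5 in Lphn2_KO and 2.38, 4.37 and 2.24 in WT libraries. The ratio of Lamb2 to Lamb1 was 2.10, 10.3 and 9.25 in Lphn2_KO and 0.946, 1.81 and 1.28 in WT libraries. Both stood higher in every Lphn2_KO library, by 3.38-fold and 4.50-fold between the geometric means. Since the pairs were chosen from genes seen to differ in opposite directions, these values are a description without a test.

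Lamc1 and Lamb2 kept a narrow ratio across all libraries, at 2.63, 2.60 and 2.84 in Lphn2_KO and 2.33, 2.43 and 2.44 in WT libraries, all Lphn2_KO values being slightly above all WT values. The ratio of Lama5 to Lamb2 was 1.45, 1.12 and 1.24 in Lphn2_KO and 1.28, 1.06 and 1.13 in WT libraries. These ratios ranged less between libraries than those of Lama5 to Lama4 and of Lamb2 to Lamb1. They too were chosen after the values were seen. How many other gene pairs keep as narrow a ratio was not computed, so joint variation of these 3 chains was not tested. The endothelial sums given above were higher in every Lphn2_KO library, as were Lama5 and Lamc1, and their part in the Lama5 and Lamc1 differences was not tested.

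**Figure D3:**
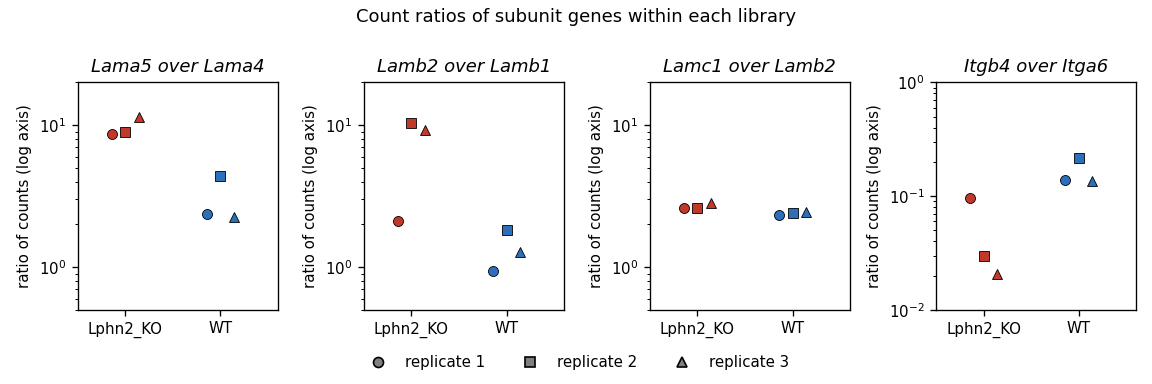
Ratios of deposited counts between subunit genes within each library on log axes, with Lphn2_KO left of WT. The ratios of Lama5 to Lama4 and of Lamb2 to Lamb1 lie higher in all 3 Lphn2_KO libraries, Lamc1 to Lamb2 stays between 2.33 and 2.84 in all 6, and Itgb4 to Itga6 is lowest in Lphn2_KO replicates 2 and 3.

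Of the chains set beside each other in the ratios above, Lama5, Lamb2 and Lamb1 have a promoter among the 24 of the 38 genes with a RefSeq entry (GRCm38.p6). The 100 bases just before the outermost start that RefSeq or GENCODE annotates for each gene are shown so that the chain pairs can be compared, 5′ to 3′ on the gene's strand. Capitals mark a GC box (GGGCGG) or a CCAAT box on either strand, which do not overlap here.
Lama5, chr2:180225905-180226004, minus strand: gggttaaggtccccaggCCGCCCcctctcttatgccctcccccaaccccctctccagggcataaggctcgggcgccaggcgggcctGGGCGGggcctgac
Lamb2, chr9:108479636-108479735, plus strand: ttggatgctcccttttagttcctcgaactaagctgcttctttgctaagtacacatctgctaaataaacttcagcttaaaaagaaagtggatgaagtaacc
Lamb1, chr12:31265046-31265145, plus strand: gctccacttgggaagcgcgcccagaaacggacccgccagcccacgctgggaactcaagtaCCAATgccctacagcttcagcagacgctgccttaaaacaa

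The Lama5 window held 2 GC boxes and 73% G and C, and the Lamb1 window 1 CCAAT box and 59% G and C. The Lamb2 window, of 38% G and C, held none of the motifs searched. Of 14129 windows chosen in the same way, 28.8% held a GC box, 22.2% a CCAAT box, 5.45% TATAAA and 1.95% the AP-1 letters (TGACTCA or its reverse complement). The last pair was found in none of the 3 windows. With none of these motifs, the Lamb2 window could share none with any gene, so nothing on the ratio of Lama5 to Lamb2 follows from them.

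The integrin alpha subunits that bind laminin had log2 fold changes between -0.08 and 0.25. Itga6, which pairs with the products of Itgb1 and Itgb4, stood at 152, 112 and 96.2 CPM in Lphn2_KO and at 130.3, 119 and 91.7 CPM in WT libraries (log2 fold change 0.08 ± 0.23 SE, edgeR, adjusted p = 0.892). The sign turned without Lphn2_KO replicate 1 or without WT replicate 3. Itga3, the subunit of an epithelial laminin receptor, stood at 72.5, 71.9 and 63.7 CPM in Lphn2_KO and at 57.6, 77.0 and 40.8 CPM in WT libraries (0.25 ± 0.24 SE). Itga7, of muscle, averaged 4.93 ± 2.49 CPM in Lphn2_KO and 5.23 ± 0.820 CPM in WT (SD, n = 3 each). In all 3 the groups overlapped.

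The subunits that bind collagen lay higher in Lphn2_KO on average, with overlap. Itga1 stood at 15.2, 18.2 and 16.1 CPM in Lphn2_KO and at 13.2, 15.3 and 5.83 CPM in WT libraries (0.53 ± 0.36 SE, edgeR, adjusted p = 0.522). Itga2, known from platelets and epithelia, averaged 3.51 ± 0.936 CPM in Lphn2_KO and 1.73 ± 0.907 CPM in WT (SD, n = 3 each; 1.03 ± 0.51 SE, edgeR, adjusted p = 0.382).

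Among subunits that bind the arginine-glycine-aspartate motif of fibronectin and vitronectin, Itgav stood at 37.4, 38.9 and 33.0 CPM in Lphn2_KO and at 36.6, 54.4 and 34.1 CPM in WT libraries (-0.19 ± 0.22 SE). Itga5, the main fibronectin receptor subunit, averaged 2.65 ± 0.816 CPM in Lphn2_KO and 1.84 ± 0.661 CPM in WT (SD, n = 3 each). Itga2b, of platelets, averaged 1.78 ± 0.578 CPM in Lphn2_KO and 2.52 ± 1.98 CPM in WT. None of these 3 separated the groups, and edgeR gave adjusted p of 0.701, 0.64 and 0.746.

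Itga4 (ENSMUSG00000027009.18, chromosome 2, 79255426 to 79333123, plus strand) encodes a receptor subunit for VCAM-1 and fibronectin that is needed for fusion of allantois and chorion and for the epicardium in the mouse. It stood at 7.53, 7.33 and 6.91 CPM in Lphn2_KO and at 3.98, 2.13 and 6.38 CPM in WT libraries. The Lphn2_KO values were nearly equal and lay above the highest WT value by under 1 CPM. The means were 7.26 ± 0.314 CPM in Lphn2_KO and 4.16 ± 2.13 CPM in WT (SD, n = 3 each), a log2 fold change of 0.79 ± 0.42 (SE, edgeR, adjusted p = 0.407). Exons of Cerkl overlap it on the other strand, and Cerkl was listed at no more than 0.200 CPM in any library. Itga9, its closest relative, which binds tenascin and osteopontin, averaged 12.6 ± 3.04 CPM in Lphn2_KO and 15.7 ± 2.26 CPM in WT with overlap (-0.31 ± 0.25 SE).

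Of the beta subunits outside the leukocyte class, Itgb4 was the one that differed most. Itgb4 (ENSMUSG00000020758.15, chromosome 11, 115974709 to 116008412, plus strand) pairs with Itga6 in the hemidesmosomes that fix epithelia to laminin. It stood at 14.7, 3.33 and 2.00 CPM in Lphn2_KO and at 18.0, 25.7 and 12.4 CPM in WT libraries. Replicate 1 of Lphn2_KO lay within the WT range and the other Lphn2_KO libraries far below it. The log2 fold change was -1.47 ± 0.72 (SE, edgeR, adjusted p = 0.375), and it was -2.81 without Lphn2_KO replicate 1 (adjusted p = 0.0313) and -0.33 with that replicate alone. Relative to Itga6 its counts were 0.0967, 0.0297 and 0.0207 in Lphn2_KO and 0.138, 0.216 and 0.135 in WT libraries, so this ratio was lower in every Lphn2_KO library.

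The sums of trophoblast and epithelial markers were, like Itgb4, lowest in Lphn2_KO replicates 2 and 3. The epithelial sum was highest in Lphn2_KO replicate 1, where Itgb4 lay within the WT range. Beside the trophoblast sums given above, 0, 7 and 5 of the 18 trophoblast genes were at 0 in Lphn2_KO replicates 1, 2 and 3, and 0, 0 and 3 in WT replicates 1, 2 and 3. The defining marker Tpbpa was read in all libraries, at 64.7, 0.400 and 2.00 CPM in Lphn2_KO and 170.3, 206 and 36.4 CPM in WT. The 14 genes of simple and surface epithelium summed to 815, 339.9 and 342 CPM in Lphn2_KO and to 689.6, 799 and 407 CPM in WT libraries. Of them 1, 4 and 4 were at 0 in Lphn2_KO and 0, 1 and 0 in WT, and Epcam was read throughout. Their part in the Itgb4 difference was not tested.

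Itgb1, the partner of most alpha subunits, stood at 139, 188 and 192 CPM in Lphn2_KO and at 145, 158 and 119.7 CPM in WT libraries. The groups overlapped (0.30 ± 0.20 SE, edgeR, adjusted p = 0.511). Itgb5, a vitronectin receptor subunit, ranged from 161 to 337 CPM in Lphn2_KO and from 229 to 415 CPM in WT (-0.29 ± 0.35 SE), and Itgb3, shared by platelets, vessels and trophoblast, from 77.3 to 119.7 CPM in Lphn2_KO and from 55.4 to 121 CPM in WT (0.24 ± 0.31 SE). Itgb6, of epithelia, averaged 3.18 ± 0.722 CPM in Lphn2_KO and 1.89 ± 1.09 CPM in WT (SD, n = 3 each; 0.74 ± 0.57 SE). None of these separated the groups. The sign of Itgb5 turned without WT replicate 2 and that of Itgb3 without WT replicate 3.

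**Figure D4:**
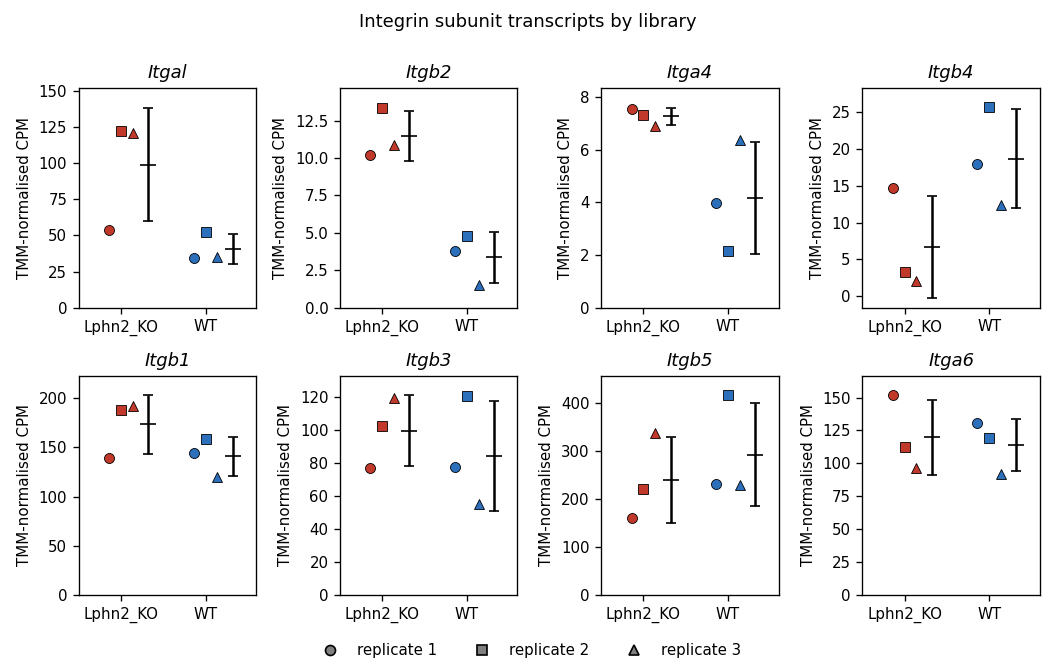
TMM-normalised CPM of 8 integrin genes in each library, with Lphn2_KO left of WT and the mean and SD of 3 libraries beside the points. Itgal, Itgb2 and Itga4 lie higher in all Lphn2_KO libraries, Itgb4 is low in Lphn2_KO replicates 2 and 3 only, and the groups overlap for Itgb1, Itgb3, Itgb5 and Itga6.

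The leukocyte pair Itgal and Itgb2, whose products form the receptor LFA-1 for intercellular adhesion molecules, was higher in every Lphn2_KO library. Itgb2 (ENSMUSG00000000290.13, chromosome 10, 77530252 to 77565708, plus strand), the beta subunit of this class, stood at 10.2, 13.3 and 10.9 CPM in Lphn2_KO and at 3.80, 4.81 and 1.49 CPM in WT libraries. The lowest Lphn2_KO value was over 2 times the highest WT value. The means were 11.5 ± 1.65 CPM in Lphn2_KO and 3.37 ± 1.70 CPM in WT (SD, n = 3 each), a log2 fold change of 1.78 ± 0.45 (SE, edgeR, adjusted p = 0.176; DESeq2, adjusted p = 0.0108). It was 1.62 with Lphn2_KO replicate 1 alone.

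Itgal (ENSMUSG00000030830.18, chromosome 7, 127296260 to 127335138, plus strand), the alpha subunit, stood at 53.8, 122 and 121 CPM in Lphn2_KO and at 34.3, 52.4 and 35.1 CPM in WT libraries. Lphn2_KO replicate 1 lay just above WT replicate 2, and the other Lphn2_KO libraries lay above 2 times any WT value. The means were 99.0 ± 39.2 CPM in Lphn2_KO and 40.6 ± 10.2 CPM in WT (SD, n = 3 each), a log2 fold change of 1.29 ± 0.35 (SE, edgeR, adjusted p = 0.187; DESeq2, adjusted p = 0.0132). It was 1.58 without Lphn2_KO replicate 1 (edgeR, adjusted p = 0.0285) and 0.43 with that replicate alone. All 6 counts of Itgal were multiples of 4, so its counting error may be larger than the counts show. The ratio of Itgal to Itgb2 overlapped between the groups, at 5.28, 9.18 and 11.1 in Lphn2_KO and 9.03, 10.9 and 23.6 in WT libraries.

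The other leukocyte subunits did not separate the groups. Itgax, of dendritic cells and macrophages, averaged 1.61 ± 0.808 CPM in Lphn2_KO and 1.35 ± 0.578 CPM in WT, and Itgb7, of gut-homing lymphocytes, 3.70 ± 2.38 CPM in Lphn2_KO and 5.24 ± 3.17 CPM in WT (SD, n = 3 each). Itgam, of macrophages and neutrophils, had a mean of 0.975 CPM over the 6 libraries, just short of the limit of 1 that Itgax passed at 1.46. Itgae and Itgad were too low to be tested.

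The sum of 14 markers of uterine natural killer cells, which carry LFA-1, was 2828, 5066 and 4013 CPM in Lphn2_KO and 1195, 2082 and 888 CPM in WT libraries. All 14 were read in every library and all 14 had positive log2 fold changes, with 0 past the adjusted threshold of edgeR. Of these, 12 were higher at an unadjusted p under 0.05, against 8.68% of all genes. Gzma, granzyme A, stood at 53.4, 90.0 and 75.1 CPM in Lphn2_KO and at 31.5, 29.6 and 19.2 CPM in WT libraries. The 15 markers of macrophages and other leukocytes overlapped between the groups in their sum, at 602, 819 and 731 CPM in Lphn2_KO and 639, 781 and 365 CPM in WT libraries. Of these 15, 12 had positive log2 fold changes (median 0.69), with 0 past the adjusted threshold of edgeR. With an unadjusted p under 0.05, 6 were higher and 2 lower, against 8.68% and 6.86% of all genes. Among the 15 markers, Ptprc, the pan-leukocyte antigen CD45, stood at 48.6, 65.2 and 49.4 CPM in Lphn2_KO and at 27.5, 26.0 and 15.1 CPM in WT libraries. Adgre1 was at 0 in WT replicate 2. The part of these cells in the Itgal and Itgb2 differences was not tested.

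**Figure D5:**
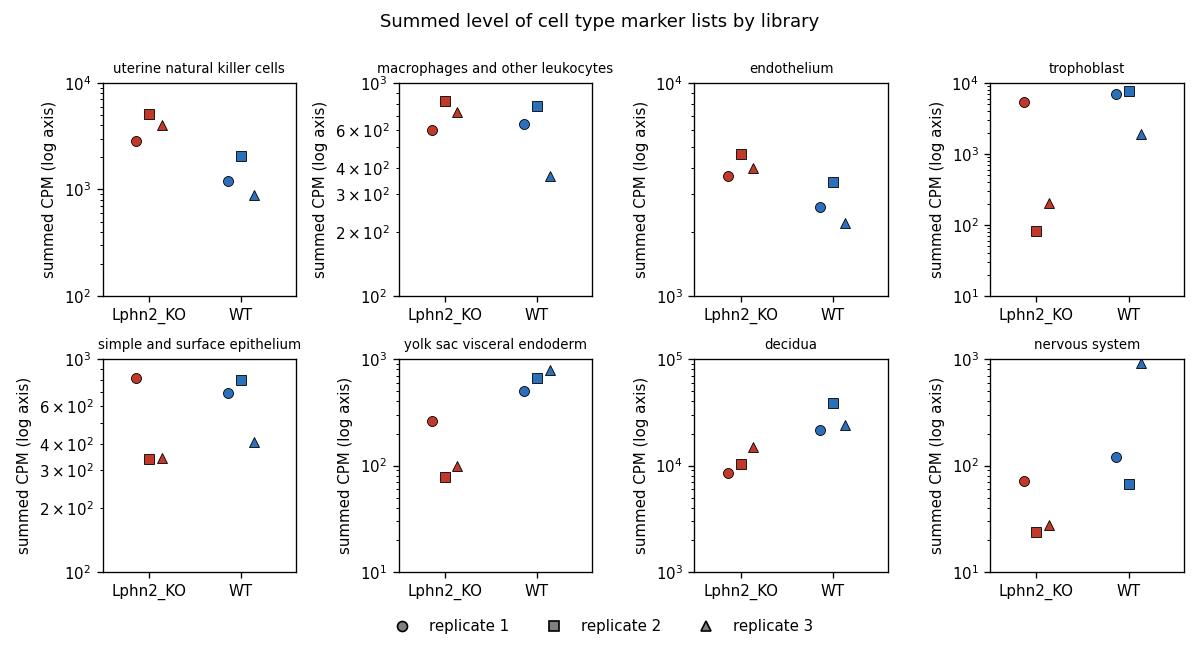
Summed CPM of 8 cell type marker lists in each library on log axes, with Lphn2_KO left of WT; integrin and laminin genes are left out of the sums. Natural killer and endothelial sums are higher and visceral endoderm sums lower in all Lphn2_KO libraries. The decidual sum is lower through Prl8a2 and overlaps without it, and trophoblast sums are low in Lphn2_KO replicates 2 and 3 only.

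Ligands and other components of basement membranes, 32 of 35 tested, were split evenly, with 16 positive and 16 negative log2 fold changes, a median of 0.01 and 0 past the adjusted threshold of edgeR. At an unadjusted p under 0.05, 4 were higher and 4 lower, where 8.68% and 6.86% of all genes were. Named by the smallest p, Mfge8, a bridge between phosphatidylserine and integrins, stood at 487, 330.5 and 417 CPM in Lphn2_KO and at 891, 1111 and 757 CPM in WT libraries (-1.16 ± 0.23 SE, edgeR, adjusted p = 0.166). Spp1, osteopontin, a ligand of several integrins, stood at 1160.0, 2183 and 1940.2 CPM in Lphn2_KO and at 505, 755 and 309.5 CPM in WT libraries (1.75 ± 0.38 SE, edgeR, adjusted p = 0.166). Neither overlapped between the groups. DESeq2 called both (adjusted p = 0.000199 for Mfge8 and 0.000279 for Spp1), as did edgeR without Lphn2_KO replicate 1 (adjusted p = 0.0474 for Mfge8 and 0.0426 for Spp1).

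Tnc, tenascin-C, a ligand of Itga9, was low in Lphn2_KO libraries, at 0.588, 0.400 and 0.499 CPM, against 6.81, 1.28 and 20.8 CPM in WT libraries (-4.26 ± 0.98 SE, edgeR, adjusted p = 0.17). Its WT values ranged widely, with the highest in WT replicate 3, the library that also had the highest nervous system sum; the part of that tissue was not tested. Fbn1, fibrillin-1, a microfibril protein with an integrin-binding motif, stood at 119, 203 and 197 CPM in Lphn2_KO and at 75.5, 104 and 66.2 CPM in WT libraries (1.08 ± 0.27 SE, edgeR, adjusted p = 0.176). DESeq2 called Tnc (adjusted p = 0.000148) and Fbn1 (adjusted p = 0.0107), and edgeR without Lphn2_KO replicate 1 called Fbn1 (adjusted p = 0.04).

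Of 11 tested laminin receptors outside the integrin family, 9 had positive and 2 negative log2 fold changes (median 0.18). None passed the adjusted threshold of edgeR. At an unadjusted p under 0.05, 0 were lower, against 6.86% of all genes, and 1 was higher, near the 8.68% of all genes. That gene was Bcam, a receptor for the Lama5 chain, at 5.22, 11.1 and 10.2 CPM in Lphn2_KO and at 3.88, 2.86 and 3.66 CPM in WT libraries, without overlap (1.34 ± 0.37 SE, edgeR, adjusted p = 0.19). It was called by DESeq2 (adjusted p = 0.0428) and, at 1.62, by edgeR without Lphn2_KO replicate 1 (adjusted p = 0.041). Next in order were Sdc4, Sdc1 and Cd44, all with overlap. Sdc1, an epithelial heparan sulphate proteoglycan, stood at 113, 10.2 and 12.8 CPM in Lphn2_KO and at 112, 123 and 69.3 CPM in WT libraries, with Lphn2_KO replicates 2 and 3 apart as for Itgb4. Its log2 fold change was -1.16 with all libraries (edgeR, adjusted p = 0.565) and -3.14 without Lphn2_KO replicate 1 (adjusted p = 0.0149), and 0.18 with that replicate alone. Sdc4 averaged 78.4 ± 19.9 CPM in Lphn2_KO and 60.7 ± 11.5 CPM in WT, and Cd44 47.7 ± 5.45 CPM in Lphn2_KO and 30.9 ± 19.7 CPM in WT (SD, n = 3 each).

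All 40 genes of the integrin activator and adhesion complex list were tested, and 27 had positive and 13 negative log2 fold changes (median 0.23), with 0 past the adjusted threshold of edgeR. At an unadjusted p under 0.05, 7 were higher and 1 lower, where 8.68% and 6.86% of all genes were. The smallest p belonged to Parvg, parvin gamma of blood cells, at 4.94, 17.7 and 11.8 CPM in Lphn2_KO and 2.83, 1.46 and 2.85 CPM in WT libraries (2.26 ± 0.53 SE, edgeR, adjusted p = 0.172). Fermt3, the kindlin of blood cells, which activates integrins of the leukocyte class, stood at 14.0, 30.3 and 25.4 CPM in Lphn2_KO and at 5.43, 9.51 and 10.3 CPM in WT libraries (1.46 ± 0.37 SE, edgeR, adjusted p = 0.176). For both, every Lphn2_KO library lay above every WT library, as for Itgal and Itgb2. DESeq2 called Parvg (adjusted p = 0.00299) and Fermt3 (adjusted p = 0.0123), and so did edgeR without Lphn2_KO replicate 1 (adjusted p = 0.0276 for Parvg and 0.04 for Fermt3). The natural killer marker sums given above were also higher in every Lphn2_KO library. Among WT libraries the order of these sums was not that of Parvg or Fermt3. Parvg stood at 2.83 and 2.85 CPM in WT replicates 1 and 3, so the order of 3 libraries decides nothing here. The part of these cells in the Parvg and Fermt3 differences was not tested.

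Tns2, a tensin of focal adhesions, stood at 43.3, 56.8 and 55.5 CPM in Lphn2_KO and at 39.3, 27.8 and 23.7 CPM in WT libraries (0.77 ± 0.23 SE, edgeR, adjusted p = 0.213). Rap1b, a small GTPase that recruits talin to integrins, stood at 228, 270.1 and 274 CPM in Lphn2_KO and at 175, 189 and 119 CPM in WT libraries (0.68 ± 0.22 SE, edgeR, adjusted p = 0.224). In both the groups did not overlap.

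The 12 members below a mean of 1 CPM were 8 integrins and 4 laminins. Of these, 3 were still tested and none separated the groups, namely Itga10, Itgam and Lama2. The other 9 were too low to be tested. Itga8, a partner of Itgb1 in mesenchyme, was read with 5, 0 and 0 counts in Lphn2_KO and 65, 3 and 28 counts in WT libraries, and Itgad, of macrophages, with 71 of its counts in WT replicate 3. Exons of other genes overlap both on the other strand, among them Cox6a2 for Itgad, and the strand setting is not given. Itgb8 was listed in WT replicate 3 only, with 14 counts. Itga11, Itgae, Itgb2l, Lamb3 and Lamc3 had at most 26 counts in any library.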

How the data were processed

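Counts per gene symbol in 6 libraries were used as the authors deposited them, as whole numbers without normalization. Per the labels' protocols, 500 ng of total RNA went into Lexogen QuantSeq libraries, and the submitters' processing notes name Bowtie2, edgeR and the build mm10. The sources used here give no version, annotation, strand setting or treatment of reads with several matches. Of the 26 genes compared, the 6 counts of 6 genes (Itgal, Itga6, Itgb3, Itgb4, Itgb5 and Itgb6) share a divisor above 1.

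Genes were kept with filterByExpr (minimum count 10), libraries scaled by TMM, and Lphn2_KO compared with WT by the quasi-likelihood test of edgeR 4.0.16 in R 4.3.3 over all genes, with Benjamini-Hochberg adjusted p-values and a threshold of 0.05. The SE is the log2 fold change divided by the square root of the test statistic. The fit was run on data simulated with the same dispersion for every gene. This checks the code and not its error rate on these libraries. Alternatives used limma 3.58.1 and DESeq2 1.42.0, the latter on the same genes. Figures used Python 3.11.15 with matplotlib 3.10.9. All 38 genes were found by symbol in GENCODE M21 (mm10), which gave their positions.

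The labels do not say that samples came from separate animals, so the p-values cover only the spread among these 6 samples, which may be technical. A code in the sample descriptions begins with 32 for WT replicate 1 and 45 for the other 5, with its meaning not stated. Without WT replicate 1 the log2 fold changes were 0.83 for Lama5, 0.78 for Lamc1, -0.75 for Lama4, 0.77 for Itga4, 1.17 for Itgal and 1.87 for Itgb2. Members were named in full where their groups did not overlap or they led their role, and partner genes by the smallest p, up to 4 a list. Lamb1, Lama1, Itgb4 and some others were added after their values were seen. 1 of the 26 genes is counted but not reported by itself here. Members, the 3 partner lists and the 13 marker lists were chosen with earlier results of these data known.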

Additional observations from a re-analysis of the deposited data

How the results depend on the processing

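Of the median log2 fold change of the 26 integrin and laminin genes, all 16 alternatives kept the sign, with a range of 0.07 to 0.45, the lowest with Lphn2_KO replicate 1 alone against WT, a fit chosen after seeing the data. DESeq2 called 387 genes lower and 470 higher, or 2.87% and 3.49% of the 13462 genes to which it gave an adjusted p. It called 1 and 2 among integrins and laminins, and 4 and 7 among the adhesion partner lists. The count of genes called lower was 0 with 1 symbol kept per identical set and 0 with Lphn2_KO replicate 1 alone. Leaving out each library in turn gave 0 to 466 genes lower and 0 to 252 higher. Among integrins and laminins it gave 0 to 2 lower and 0 to 1 higher, and among partner genes 0 to 3 lower and 0 to 5 higher. The highest values came without Lphn2_KO replicate 1, where 3.27% of all genes were called lower and 1.77% higher. The highest but one count of lower genes, 11, came without WT replicate 2. Genes whose groups did not overlap numbered 5 to 12 higher and 1 to 5 lower when 1 library was left out, with 12 and 5 without Lphn2_KO replicate 1, 10 higher and 2 lower without WT replicate 2, 4 lower without WT replicate 3 and 2 lower without Lphn2_KO replicate 3. With Lphn2_KO replicate 1 alone they were 7 and 3. Fewer libraries separate more easily by construction: of all genes tested, 13.7% to 22.4% were then higher and 11.5% to 23.5% lower without overlap when 1 library was left out, and 23.4% and 21.2% with Lphn2_KO replicate 1 alone.

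With the replicate number as a block, 0 genes were called lower, against 7. Samples with the same number had deviations correlated at 0.127, -0.0238 and 0.0706, so the numbers were not taken to pair them.

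Signs turned in genes near 0 and in some further from it, among them Itga5 (0.53 with all libraries), Itga2b (-0.51) and Itgb7 (-0.50). With Lphn2_KO replicate 1 alone the log2 fold change was -0.0696 for Itga5, 0.26 for Itga7, 0.0611 for Itga9, -0.75 for Itgax and -0.11 for Itgb3. Leaving out each library in turn gave ranges of -0.91 to 0.30 for Itga2b, -0.13 to 0.22 for Itga6, -0.33 to 0.29 for Itga7, -0.33 to 0.0540 for Itgav, -0.15 to 0.61 for Itgax, -0.00055 to 0.60 for Itgb3, -0.61 to 0.0678 for Itgb5 and -1.12 to 0.0993 for Itgb7. The signs of Lama5, Lamb2, Lamc1, Lama4, Lamb1, Lama1, Itgal, Itgb2, Itga4 and Itgb4 held under all alternatives run. The cause of these shifts was not tested. Low counts kept 9 members out of the test.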

Other observations

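The remaining marker lists, with the parietal endoderm sums given again, were measured as follows. Parietal endoderm genes outside the laminins summed to 6160, 9575 and 8615 CPM in Lphn2_KO and to 7727, 5799 and 3732 CPM in WT libraries, most of it Sparc, which other tissues also express. Platelet genes other than Itga2b summed to 46.9, 37.8 and 43.8 CPM in Lphn2_KO and to 47.5, 62.9 and 92.7 CPM in WT libraries. Cardiac muscle genes summed to 22.9, 8.00 and 19.3 CPM in Lphn2_KO and to 106, 43.0 and 464 CPM in WT libraries. Smooth muscle genes summed to 111, 116 and 110.7 CPM in Lphn2_KO and to 775, 94.3 and 155 CPM in WT libraries. Primitive erythroid genes summed to 802, 88.5 and 66.5 CPM in Lphn2_KO and to 2285, 1975 and 1545 CPM in WT libraries.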
